A study of Mus musculus with 2 samples.

Results

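The miR-17/92 and miR-106b/25 clusters are 2 groups of microRNA (miRNA) genes, each made as 1 long transcript that is cut into several hairpins. The 9 genes were chosen by name from the 2202 miRNA genes in the deposited files: Mir17, Mir18, Mir19a, Mir20a, Mir19b-1 and Mir92-1 on chromosome 14, and Mir106b, Mir93 and Mir25 on chromosome 5. All 9 were found in the GENCODE M21 annotation of mm10 under these symbols. The study sequenced microRNAs in total RNA of left cerebral cortex from 2 males at an age of 25 days, and each mouse gave 1 library. The mice were of the strain B6CASTF1/J, an F1 hybrid of C57BL/6J and CAST/EiJ, and had no treatment or mutation named in the labels. Both libraries belong to 1 group, so the data describe levels and the spread between replicate 1 and replicate 2.

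Both clusters are known as drivers of the cell cycle and of survival: MYC and E2F factors activate them, and their miRNAs repress inhibitors of proliferation and cell death such as Cdkn1a and Bcl2l11. A miRNA finds its target mRNAs mainly through its seed, bases 2 to 8, and genes with the same seed are expected to repress overlapping targets. In the mouse cortex the clusters are best known from neural progenitors before birth, where miR-17/92 promotes expansion. The tissue measured here was juvenile cortex, in which most cells have left the cell cycle.

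The 9 mature miRNAs carry 4 seeds, and they are shown here because both the levels and the differences between the libraries are described by seed. Sequences are those of RefSeq on GRCm38.p6, matched for all 9 genes, written 5′ to 3′ with the seed in capitals. The arm shown is the one that carries the family's seed. Counts are per gene and do not tell the arms of a hairpin apart, so a sum by seed is over genes that carry it. The first 4 share the seed AAAGUGC (miR-17 seed), the next has AAGGUGC (miR-18 seed), the next pair GUGCAAA (miR-19 seed) and the last pair AUUGCAC (miR-25/92 seed).
miR-17-5p: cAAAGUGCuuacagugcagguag
miR-20a-5p: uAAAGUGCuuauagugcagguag
miR-106b-5p: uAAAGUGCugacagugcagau
miR-93-5p: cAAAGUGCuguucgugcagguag
miR-18a-5p: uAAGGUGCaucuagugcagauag
miR-19a-3p: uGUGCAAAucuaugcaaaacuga
miR-19b-3p: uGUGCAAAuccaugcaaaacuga
miR-92a-3p: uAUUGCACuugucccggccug
miR-25-3p: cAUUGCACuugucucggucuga
The clusters therefore mix seeds: miR-17/92 holds all 4 and miR-106b/25 holds those of miR-17 and miR-25/92. Positions are counted from 1 at the 5′ end of the first miRNA named. From miR-17-5p to miR-20a-5p the changes were C1U and C12U, from miR-19a-3p to miR-19b-3p the change was U11C, and miR-92a-3p differed from miR-25-3p by U1C, C14U and C18U over 21 bases. The miR-18a-5p seed differs from that of miR-17-5p by A4G alone. Mature lengths ran from 21 to 23 bases, so 1 read stood for about the same length of RNA in every gene.

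Mature sequences decide which reads could be given to 1 gene. Of the mapped reads, 48.6% in replicate 1 and 52.8% in replicate 2 had several matches, and the files give these to no gene. The mature miR-19b-3p of Mir19b-1 and miR-92a-3p of Mir92-1 are each identical to that of 1 other gene, Mir19b-2 and Mir92-2 on the X chromosome. The stretch that the 2 loci of each pair share is in capitals below, with the hairpin bases around it.
Mir19b-1: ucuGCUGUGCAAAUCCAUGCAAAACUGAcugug
Mir19b-2: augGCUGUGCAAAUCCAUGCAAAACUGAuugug
Mir92-1: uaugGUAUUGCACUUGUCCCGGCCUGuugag
Mir92-2: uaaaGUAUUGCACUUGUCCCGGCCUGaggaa
The pair of miR-19b loci shared 25 bases, 2 of them before the mature end and none after it. The pair of miR-92a loci shared 22 bases, and the base after the mature sequence was U in Mir92-1 and A in Mir92-2. A read of either mature form alone matches both loci, so the counts of Mir19b-1 and Mir92-1 leave such reads out and are uncertain. Whether the reads counted for these genes were longer forms or the other arm was not tested. The other 7 mature sequences had no identical copy in another RefSeq mouse hairpin, although Mir17 came within 1 mismatch of Mir106a, and Mir19a within 1 of Mir19b-1. The genome outside hairpins was not searched.

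The libraries held 2388379 and 4447390 counts on the genes' own strand in replicates 1 and 2, and levels are given as counts per 1000000 of these (CPM). A level of 3 counts is 1.26 CPM in replicate 1 and 0.675 CPM in replicate 2. Unmapped reads were 31.6% and 18.2% of all reads. Neuronal marker miRNAs had a sum of 87809 CPM in the first replicate and 75131 CPM in the second, with a count for all 10. Of these sums Mir132 alone gave 60392 and 37793 CPM, and the 3 Mir124a genes, whose mature form is shared, gave only 4.19 and 4.05 CPM. Other marker genes were not searched for a shared mature form, so their counts may leave out reads of several matches too. Oligodendrocyte markers summed to 2726 and 3556 CPM with Mir219b at 0, and endothelial and mural markers to 16755 and 28009 CPM with none at 0. White blood cell and microglia markers summed to 2306 and 2493 CPM, and red cell markers to 134 and 144 CPM. Of 7 muscle markers 4 were at 0 and of 12 pluripotent cell markers 6 were at 0, with sums of at most 25.9 and 3.35 CPM. In bulk tissue, fewer cells of a type and less RNA per cell cannot be told apart.

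Genes of the clusters were counted at low to moderate levels, against 112556 CPM for Mir139, the most abundant gene of these libraries, and genes with the miR-17 seed held most of their counts. Together the 9 genes held 9027 counts in replicate 1 and 16142 in replicate 2. This was 0.378% (95% exact Clopper-Pearson interval 0.370 to 0.386%) and 0.363% (0.357 to 0.369%) of the counts, or 0.370% ± 0.011 (SD, n = 2). Such intervals treat the reads of 1 library as independent and speak of counting error alone. PCR copies of a molecule cannot be told apart without molecular identifiers, so the intervals may be too narrow. The 4 genes with the miR-17 seed summed to 3339 CPM in the first library and 2975 CPM in the second. The pair with the miR-25/92 seed summed to 376 and 553 CPM, Mir18 stood at 63.6 and 101 CPM, and the pair with the miR-19 seed summed to 1.26 and 0.899 CPM. Reads that match both loci of miR-92a or of miR-19b are missing from the sums of these pairs. By the counts given to genes, the miR-19 pair lay orders of magnitude below the miR-17 group in both libraries.

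**Figure D1:**
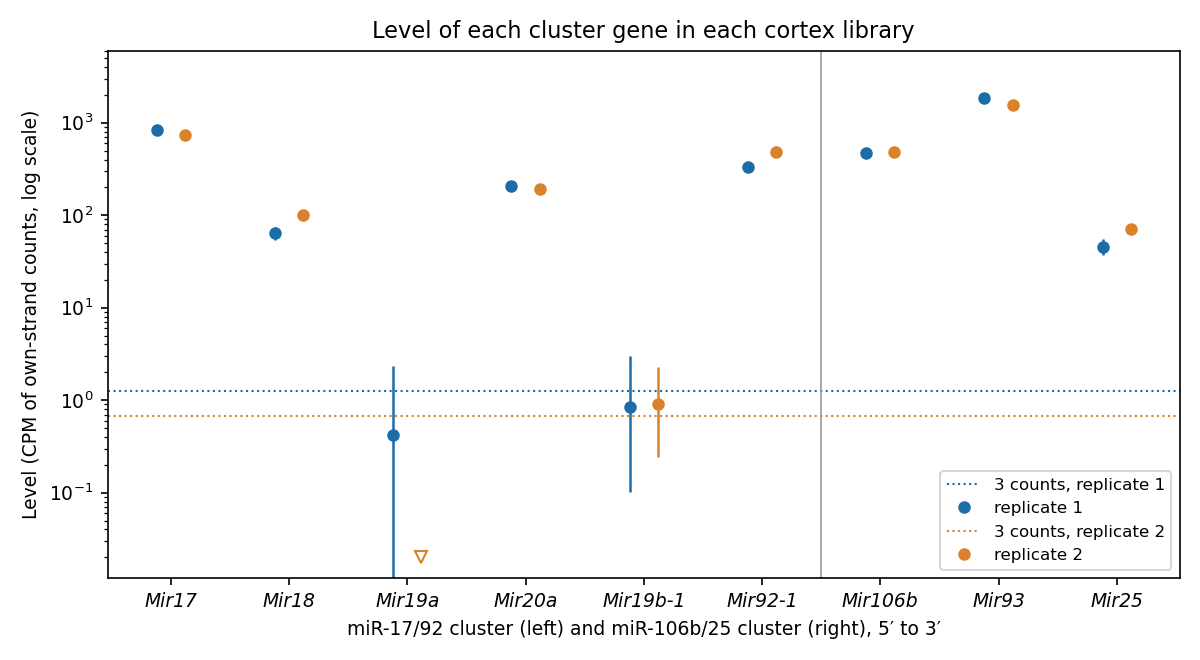
Level of each gene in replicate 1 (blue) and replicate 2 (orange), in CPM on a log scale, with exact 95% counting intervals as bars and the level of 3 counts as dotted lines. Mir93 lies highest at 1831 and 1560 CPM, and Mir19a and Mir19b-1 lie near or below the dotted lines; the open triangle marks the count of 0 of Mir19a in replicate 2.

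The most abundant gene was Mir93 (ENSMUSG00000065527.1; mm10 chromosome 5, 138165523 to 138165610, minus strand), whose miRNA is known to repress Cdkn1a. It had 4372 counts in replicate 1 and 6938 in replicate 2, which is 1831 CPM and then 1560 CPM (1695 ± 191 CPM, SD, n = 2). Its rank among the 2202 genes by mean level was 82. Mir17 (ENSMUSG00000065508.1; chromosome 14, 115043671 to 115043754, plus strand), the first gene of its cluster, had 1975 and 3307 counts, at 827 and 744 CPM (785 ± 58.9 CPM), and ranked 118. The level of Mir93 was 2.21 times that of Mir17 in replicate 1 (exact counting interval 2.10 to 2.34) and 2.10 times in replicate 2 (2.01 to 2.19). Mir106b (ENSMUSG00000065514.1; chromosome 5, 138165737 to 138165818, minus strand), which also targets Cdkn1a, had 1127 and 2133 counts. At 472 and 480 CPM (476 ± 5.47 CPM) it had the smallest SD relative to its mean of the 7 members with 10 or more counts in both libraries. Mir20a (ENSMUSG00000065442.1; chromosome 14, 115044157 to 115044263, plus strand), known to repress E2f1 together with Mir17, had 500 and 853 counts, at 209 and 192 CPM (201 ± 12.4 CPM). Mir17 stood at 3.95 times Mir20a in replicate 1 (3.58 to 4.37) and 3.88 times in replicate 2 (3.59 to 4.18). This ratio between hairpins of 1 transcript differed between the libraries by less than counting error.

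The pair with the miR-25/92 seed had the lower sum, although Mir92-1 stood above Mir20a in both libraries, at 1.58 times its level in replicate 1 and 2.51 times in replicate 2. Mir92-1 (ENSMUSG00000076062.1; chromosome 14, 115044427 to 115044506, plus strand), whose miR-92a is known for restraining vessel growth, had 789 counts in replicate 1 and 2140 in replicate 2. Its level was 330 and 481 CPM (406 ± 107 CPM), without the reads that match both miR-92a loci. Mir25 (ENSMUSG00000065394.1; chromosome 5, 138165321 to 138165404, minus strand), known to repress the death gene Bcl2l11, had 109 and 318 counts, at 45.6 and 71.5 CPM (58.6 ± 18.3 CPM). Both genes were higher in replicate 2, and the ranges of the pair did not overlap. Mir92-1 was 7.24 times Mir25 in replicate 1 (5.92 to 8.93) and 6.73 times in replicate 2 (5.98 to 7.59).

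Mir18 (ENSMUSG00000065403.1; chromosome 14, 115043851 to 115043946, plus strand), the sole member with the miR-18 seed, had 152 and 449 counts. It stood at 63.6 CPM in the first library and 101 CPM in the second (82.3 ± 26.4 CPM). The miRNA is known to repress anti-angiogenic genes such as Ctgf. Its level lay between those of Mir20a and Mir25.

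The genes with the miR-19 seed, the component of the cluster that drives lymphoma in mice, were at the limit of detection. Mir19a (ENSMUSG00000065416.1; chromosome 14, 115044000 to 115044081, plus strand) had 1 count in replicate 1 and 0 in replicate 2, or 0.419 and 0 CPM. For the count of 0 the exact 95% interval reached 0.829 CPM, and 3 counts would be 0.675 CPM. Mir19b-1 (ENSMUSG00000076256.1; chromosome 14, 115044305 to 115044391, plus strand) had 2 and 4 counts, or 0.837 and 0.899 CPM (0.868 ± 0.044 CPM). These hairpins lie on both sides of Mir20a on the same transcript. Mir20a stood at 250 times Mir19b-1 in replicate 1 (counting interval 68.8 to 2070) and at 213 times in replicate 2 (83.0 to 784). Against Mir19a, Mir20a stood at 500 times in replicate 1 (89.3 to 19788). In replicate 2 Mir20a was 284 times the level of 3 counts, a level below the upper end of the interval for Mir19a. For Mir19b-1 the mature form is shared with Mir19b-2, which had 0 counts in both libraries. For Mir19a no identical copy was found, and its mature sequence differs from miR-19b-3p by U11C alone. How many reads of either miRNA lie among those with several matches was not tested.

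By the counts given to each gene, levels along the transcripts followed no steady order. All 6 hairpins on chromosome 14 lie within 836 bases, in exon 2 of the long non-coding RNA gene Mir17hg. The 3 on chromosome 5 lie within 498 bases in Mcm7, which encodes a subunit of the replicative helicase, on the same strand. For these 3 the annotation places the hairpins in an intron (intron 8 or 13, by transcript), and Mir93 and Mir25 also overlap exon 1 of 1 further Mcm7 transcript. In miR-17/92, Mir17 at the 5′ end supplied 57.8% and 49.0% of the cluster's counts in replicates 1 and 2. Mir92-1 at the 3′ end supplied 23.1% and 31.7%, Mir20a 14.6% and 12.6%, and Mir18 4.45% and 6.65%. In miR-106b/25 the middle hairpin, Mir93, supplied 78.0% and 73.9%, Mir106b 20.1% and 22.7%, and Mir25 1.94% and 3.39%. The lowest gene of miR-106b/25 was thus Mir25, and by these counts the pair with the miR-19 seed was lowest in miR-17/92. Reads that match both loci of miR-19b or miR-92a are missing from Mir19b-1 and Mir92-1. The shares and the order within miR-17/92 are therefore uncertain.

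**Figure D2:**
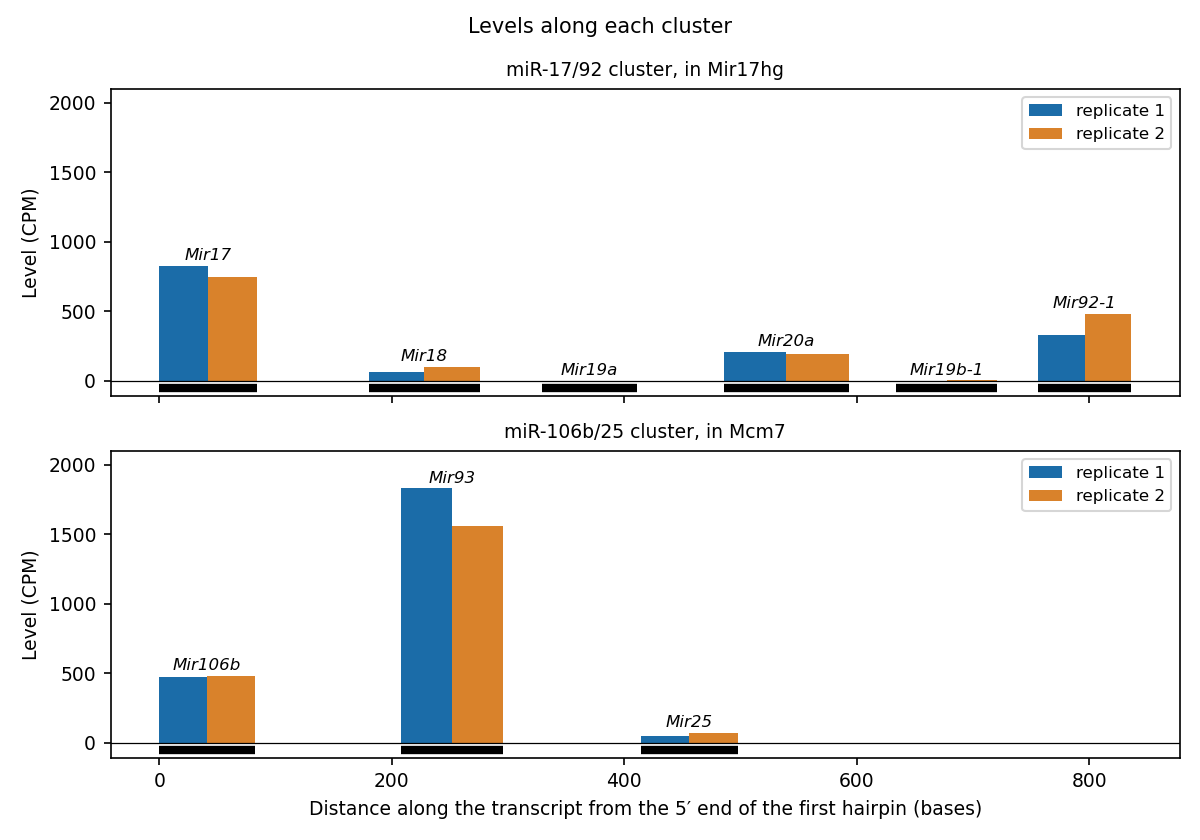
Level of each gene in CPM (bars, replicate 1 blue and replicate 2 orange) along its transcript, by distance in bases from the 5′ end of the first hairpin; black blocks mark the hairpins. Mir17 and Mir93 stand highest in their clusters in both libraries, while the bars of Mir19a and Mir19b-1 are too low to see.

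Summed over the counts given to its genes, miR-106b/25 was the higher cluster, without reads of several matches. Its sum was 2348 CPM in the first library and 2111 CPM in the second (2230 ± 168 CPM), against 1432 and 1518 CPM (1475 ± 61.5 CPM) for miR-17/92. The ranges did not overlap. The ratio of the sums was 1.64 in replicate 1 (exact counting interval 1.57 to 1.71) and 1.39 in replicate 2 (1.35 to 1.43). An exact permutation test over 2 libraries cannot give a p under 0.5, so none was run. The sum of miR-17/92 leaves out reads that match both loci of miR-19b or miR-92a, so the true ratio may be lower, and its direction is uncertain. The sums lay 2189 counts apart in replicate 1 and 2636 in replicate 2, which is 0.083% and 0.045% of the reads with several matches. If reads of miR-19b and miR-92a from the chromosome 14 loci made up more than these shares, miR-17/92 would be the higher cluster. How many they are was not tested.

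In order of mean level the members ran Mir93, Mir17, Mir106b, Mir92-1, Mir20a, Mir18, Mir25, Mir19b-1 and Mir19a. The places of Mir92-1 and Mir19b-1 are uncertain, because reads that match both loci of their miRNAs are left out. The ranges of Mir106b and Mir92-1 overlapped, with Mir106b higher in replicate 1 and Mir92-1 marginally higher in replicate 2. Those of Mir18 and Mir25 overlapped too, although Mir18 was the higher in each library. Mir19b-1 and Mir19a lay within 4 counts of 0 and were not ordered. The order was the same when levels were divided by the annotated length of each gene, which ran from 80 bases in Mir92-1 to 107 in Mir20a. Next to Mir93 in mean level stood Mir154 and Mir185 above it and Mir671 and Mir431 below it, all within 0.02 of its mean log2(CPM + 1). Next to Mir17 stood Mir532 and Mir187 above it and Mir326 and Mir467d below it, at −0.20 to 0.04 from its own. This likeness is of level alone, over 2 libraries.

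Of the paralogous cluster on the X chromosome (Mir106a, Mir18b, Mir20b, Mir19b-2, Mir92-2 and Mir363), which carries the same seeds, little was counted. Its 6 genes held 72 counts in replicate 1 and 184 in replicate 2, or 30.1 and 41.4 CPM. By these counts the miR-17/92 sum was 47.5 times that of the X-linked cluster in replicate 1 (37.6 to 60.8) and 36.7 times in replicate 2 (31.7 to 42.7). Reads that match both loci of miR-19b or miR-92a are missing from both sums, so the true ratio is uncertain. Gene by gene, Mir106a had 17 and 31 counts, Mir20b 18 and 39, Mir92-2 32 and 90, and Mir363 5 and 24, while Mir18b and Mir19b-2 had none. The closest pair in sequence, Mir17 and Mir106a, differ by U10A, and Mir17 stood at 116 times Mir106a in replicate 1 (72.4 to 200) and 107 times in replicate 2 (75.0 to 157). Mir92-1 stood at 24.7 times (17.3 to 36.3) and 23.8 times (19.3 to 29.7) Mir92-2, its identical copy in mature form, in the same libraries. Neither count holds reads that match both loci, so this ratio does not tell how much miR-92a each locus made.

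Of the counts given to the listed genes of each seed, the clusters held nearly all for miR-17 and the smaller part for miR-25/92. Mir92-1 lacks the reads that match both miR-92a loci. The listed genes are the members, the X-linked cluster, Mir32, Mir92b and Mir367, and no other genes were searched for these seeds. Members gave 99.6% of the counts of the listed genes with the miR-17 seed in replicate 1 (95% exact interval 99.4 to 99.7%) and 99.5% in replicate 2 (99.3 to 99.6%). Mir93 alone gave 54.6% and 52.2%. Of the listed genes with the miR-25/92 seed, members gave 8.53% in replicate 1 (8.0 to 9.08%) and 10.02% in replicate 2 (9.65 to 10.4%). The rest came mostly from Mir92b (chromosome 3, 89227116 to 89227198), a gene outside both clusters that is known to restrain intermediate progenitors in the mouse cortex. It had 9561 and 21840 counts, at 4003 and 4911 CPM, or 90.8% and 89.1% of the counts of the listed genes with the seed. Its mature sequence, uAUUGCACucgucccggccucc, departs from miR-92a-3p by U10C and G21C over their shared 21 bases, and has no identical copy. Mir92b stood at 12.1 times Mir92-1 in replicate 1 (11.3 to 13.0) and 10.2 times in replicate 2 (9.76 to 10.7). The reads of miR-92a that match both its loci are missing from this ratio and from the members' share of the seed, so the ratio may be too high and the share too low. The members' counts and those of the other listed genes with the seed lay 8735 apart in replicate 1 and 19606 in replicate 2. These gaps were 0.331% and 0.337% of the reads with several matches. Mir32, another gene with the seed, had 35 and 110 counts, and Mir367, known from pluripotent cells, had 0 in both.

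**Figure D3:**
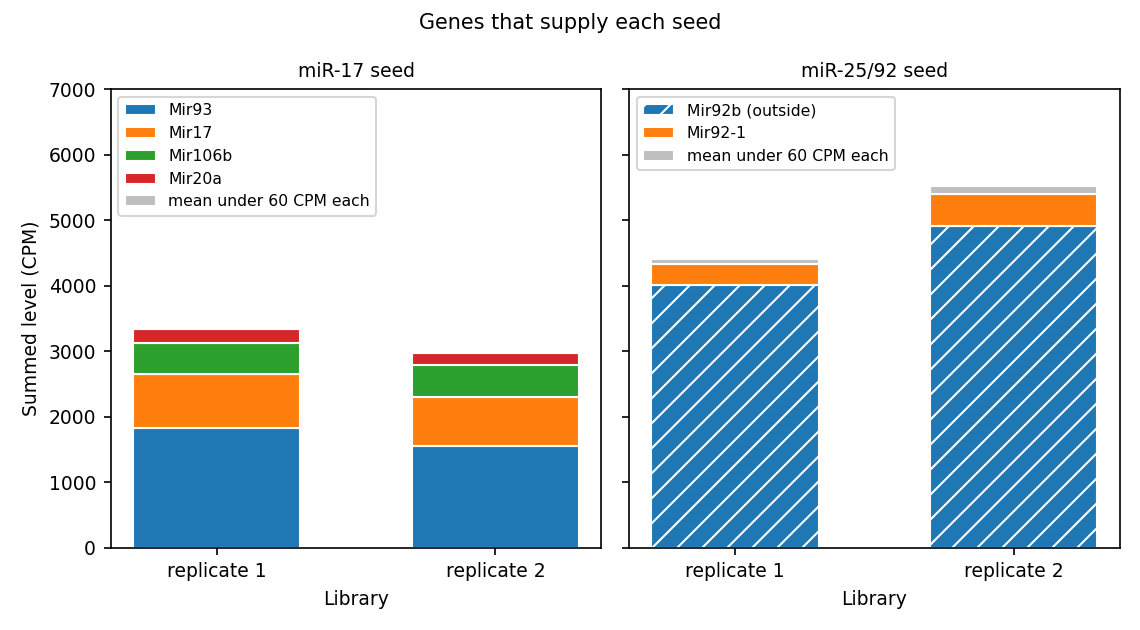
Summed level in CPM of the listed genes with the miR-17 seed (left) and the miR-25/92 seed (right) in each library. Bars are stacked by gene, but the genes of lowest level, Mir25 among them, are pooled in grey without hatching. Hatched bars are Mir92b, and the other genes outside both clusters lie in the grey. Mir93 and Mir17 make up most of the left bars, and Mir92b, at 4003 and 4911 CPM, makes up most of the right bars.

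Between the libraries, 5 of the 7 members that could be tested differed beyond counting error. Higher in replicate 2 were Mir18 (1.59-fold), Mir25 (1.57-fold) and Mir92-1 (1.46-fold), and lower were Mir93 and Mir17, whose levels in replicate 2 were 0.852 and 0.899 of those in replicate 1. The exact conditional binomial test, two-sided and Benjamini-Hochberg adjusted over the 392 genes that had 10 or more counts in both libraries, called these 5, 3 higher and 2 lower. It called 56.9% of all genes tested, 34.2% higher and 22.7% lower, which is the background for the members' count. The test compares 2 libraries and takes in counting error alone. No test of a difference between seeds was run, because genes of 1 library are not replicates. Mir19a and Mir19b-1 had too few counts to be tested.

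The log2 ratios of replicate 2 over replicate 1 were 0.67 for Mir18 (counting SE 0.14, adjusted p = 1.12e-06 in the exact test), 0.65 for Mir25 (SE 0.16, adjusted p = 8.56e-05) and 0.54 for Mir92-1 (SE 0.060, adjusted p = 8.17e-20). Ratios of −0.23 for Mir93 (SE 0.028, adjusted p = 7.23e-16) and −0.15 for Mir17 (SE 0.041, adjusted p = 0.000458) were smaller. Mir20a had a log2 ratio of −0.13 (SE 0.081) and did not pass (adjusted p = 0.186), but passed with TMM scaling of the libraries (−0.19, adjusted p = 0.0391) and with DESeq2 size factors (−0.19, adjusted p = 0.0365). Mir106b had 0.02 (SE 0.053, adjusted p = 0.764 in the exact test), and −0.04 with TMM or DESeq2 scaling. The median over the 7 members was 0.02, against 0.06 over all genes tested. Past 1.5-fold were 2 of the 7, Mir18 and Mir25 (1 of them with DESeq2 size factors), against 27.6% of all genes tested.

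Of the listed genes outside the clusters that share a seed with them, 5 could be tested, and 4 of these had ratios above 1. Such ratios were common in this pair of libraries, at 216 of all 392 genes tested (55.1%) and 4 of the 7 members. With the miR-25/92 seed, Mir92b was 1.23-fold higher in replicate 2 (counting interval 1.198 to 1.26) and Mir32 1.69-fold higher (1.14 to 2.54), and both passed the test. Mir92-2 was at 1.51-fold (0.999 to 2.34) and did not pass (adjusted p = 0.0775 in the exact test). Mir363, with 5 counts in replicate 1, was below the count minimum. For the miR-17 seed, Mir106a and Mir20b had ratios of 0.979 (0.525 to 1.89) and 1.16 (0.650 to 2.16), and neither passed.

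Within the libraries, the members with the miR-25/92 seed stood at 0.113 of those with the miR-17 seed in replicate 1 (exact counting interval 0.105 to 0.121) and at 0.186 in replicate 2 (0.178 to 0.194). Inside the chromosome 14 transcript, Mir17 was 2.50 times Mir92-1 in replicate 1 (2.30 to 2.72) and 1.55 times in replicate 2 (1.46 to 1.63). Both this ratio and that of the seeds leave out reads that match both miR-92a loci, so their values are uncertain. Mir17 was 13.0 times Mir18 (11.0 to 15.4) and then 7.37 times (6.67 to 8.15). On chromosome 5, Mir93 was 40.1 times Mir25 (33.2 to 49.0) and then 21.8 times (19.5 to 24.5). Mir93 was 3.88 times Mir106b (3.63 to 4.15) and then 3.25 times (3.10 to 3.42). These intervals cover counting error alone, by which 56.9% of all genes tested differed between the libraries, so a shift of such a ratio is no result about the members.

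**Figure D4:**
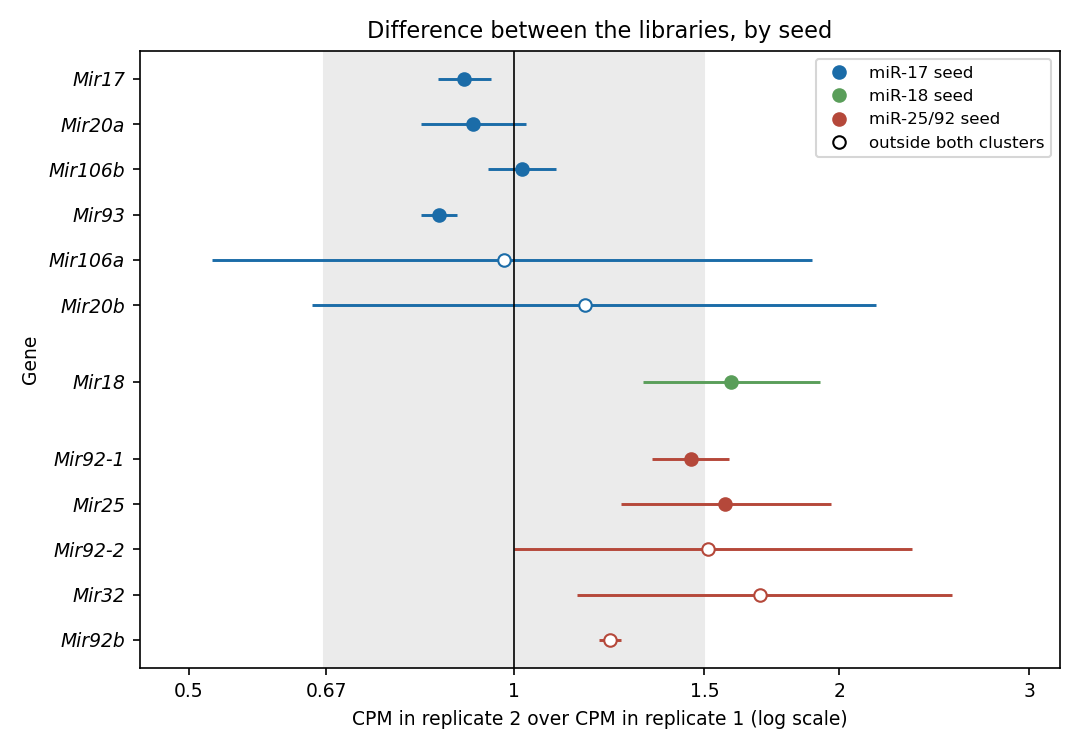
Ratio of the CPM in replicate 2 to that in replicate 1 on a log scale, with exact 95% counting intervals, for genes tested, coloured by seed; filled points are cluster members, and grey shading spans changes up to 1.5-fold. Of the members 4 of 7 lie right of 1, and of the genes outside the clusters 4 of 5, against 216 of the 392 genes tested; 5 members and 2 of the others passed the test.

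These differences are no larger than those of many genes in this pair. Over the 242 genes that reached 100 counts in both libraries the SD of the log2 ratio was 0.56, where counting alone would give 0.077, and the widest ratio of a member was 0.67, for Mir18. With the spread between the libraries allowed for in edgeR's exact test (coefficient of variation 0.311), none of the 7 members passed, and none had an unadjusted p under 0.05. That test has 1 library on each side and takes its dispersion from the same pair. Between the libraries the sums of markers also moved: endothelial and mural markers were 1.67-fold higher in replicate 2, oligodendrocyte markers 1.30-fold higher, and neuronal markers stood at 0.856. The genes within each of these sums did not move together. Mir126a was at 2.09, but Mir143 at 0.925 and Mir145a at 0.857. Mir219a-2 was at 1.64, but Mir338 at 0.977 and Mir219a-1 at 0.594. Of the neuronal markers, Mir132 was at 0.626, Mir138-2 at 0.948 and the Mir124a genes together at 0.967. Above 1 were Mir128-1 (1.63), Mir128-2 (1.36), Mir137 (1.27), Mir138-1 (1.08) and Mir153 (2.84). Red cell markers were at 1.08 (exact counting interval 0.939 to 1.23). The part of the markers, of depth or of the shares of unmapped reads in the differences of the members was not tested, and with 1 library per mouse, mouse and library cannot be told apart.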

How the data were processed

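Small-RNA libraries (size range under 30, per the labels) gave deposited raw counts per miRNA gene, made by the authors on mm10 with GENCODE M21, per the readme files. Which aligner and counter made them is not given in the sources used here. Without a header, the 3 columns were taken, from their values, as counts without regard to strand, of the gene's own strand (used here) and of the opposite strand, where the 9 members had 0 counts. The first leaves out reads over genes on both strands as ambiguous (166659 and 380286 reads), so 35 genes had fewer counts in it than on their own strand, and its totals were lower. Entries that name no gene were left out of totals. All 2202 identifiers matched GENCODE M21. The reference is that of C57BL/6J, and mismatches of CAST/EiJ reads were not tested.

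CPM were computed from own-strand totals. The libraries differed beyond sampling noise (chi-square 176680 on 760 degrees of freedom) and were kept as 2 replicates. With 1 group, edgeR's quasi-likelihood test has no contrast. Replicate 2 was set against replicate 1, for genes reaching 10 counts in both, by an exact conditional binomial test. The threshold was 0.05 after Benjamini-Hochberg adjustment. A trial on simulated data held counting error alone and no further spread between libraries, so it does not bear on the calls in this pair. Named genes are the members, the X-linked cluster, Mir32, Mir92b and Mir367 for their seeds, level neighbours, Mir139 and genes of the marker lists. Members and lists were chosen with earlier results of these data known. RefSeq gave mature sequences and hairpins. Alternatives were counts without regard to strand, TMM and DESeq2 scaling, other totals, count minimums of 1 and 100, gene length, pseudocounts and edgeR's exact test. Tools were Python 3.11.15, SciPy 1.17.1, pandas 2.3.3, NumPy 2.4.6, matplotlib 3.10.9, R 4.3.3, edgeR 4.0.16 and DESeq2 1.42.0.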

Additional observations from a re-analysis of the deposited data

How the results depend on the processing

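Levels depended on the total. With counts taken without regard to strand, whose totals are lower (2221800 and 4067247) while the members' counts are the same, the sum of the 9 members was 4016 CPM, that of miR-17/92 1600 CPM, that of miR-106b/25 2416 CPM, and those of the miR-17 seed 3421 CPM for members and 3438 CPM with relatives. With the most abundant gene left out of the total they were 4174, 1662, 2512, 3557 and 3574 CPM. Without the genes that have an identical copy, miR-17/92 summed to 1068 CPM and the ratio of the clusters was 2.09; this takes counts from miR-17/92 alone, so it could only raise the ratio and does not bear on reads left out. Of the levels of single members, 11 values moved by over 1 SD. All other sums moved by less than 1 SD under every scaling and length alternative, which a wide SD alone can give. With the most abundant gene left out of the total, the members with the miR-25/92 seed went from 464 to 523 CPM (main SD 125). Leaving out 1 of 2 libraries moves a mean by a fixed part of its SD, so it says nothing of stability; it gave 3630 to 3780 CPM for the 9 members and 1.39 to 1.64 for the ratio of the clusters. The binomial test called 5 or 6 members under every count minimum, strand setting and scaling, and 0 under edgeR's exact test, where 3 of all genes passed. With DESeq2 size factors 1 member was past 1.5-fold. For Mir106b the log2 ratio reversed to −0.039 with TMM and to −0.040 with DESeq2 scaling, and passed no test. The causes were not tested. No paired analysis was possible because all samples form 1 group. Mir19a and Mir19b-1 had under 5 counts a library, and the part of depth or of reads with several matches in this was not tested.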
